A study of Mus musculus with 12 samples.

Results

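The intercalated disc junction genes examined here are Myzap, Cdh2, Ctnna3, Dsg2, Dsc2, Jup, Pkp2, Dsp, Gja1 and Tjp1, 10 of the 23457 rows of a table of read counts per gene from mouse hearts. All 10 passed the filter on low counts, which kept 13050 genes. Myzap was chosen by its own difference between Parkin KO and noninduced hearts in an earlier look at these counts, so its values are given as a description with no test of that difference. The other 9 were named for their place in the disc, to ask whether the Myzap pattern extends to its neighbours there. Messenger RNA was measured in 12 adult hearts of strain C57BL/6J, 6 in each group. The noninduced group carried floxed alleles and no Cre. The Parkin KO group carried floxed alleles and MERCreMer, a Cre recombinase that tamoxifen releases into the nucleus, and is labelled as induced in the adult. The labels put both groups at 9 to 10 weeks after tamoxifen induction, name no promoter for MERCreMer and do not say whether noninduced mice received tamoxifen. Because MERCreMer was present in the Parkin KO group alone, loss of Parkin and presence of the transgene cannot be told apart. The tissue is labelled whole heart, while the protocol describes frozen ventricular apexes.

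The intercalated disc is the end-to-end contact between cardiac muscle cells. Its adherens junctions anchor the contractile filaments, its desmosomes anchor the intermediate filament desmin, and its gap junctions pass the electrical impulse from cell to cell. In the working myocardium the adhesive junctions are mixed into a composite area, and inherited defects of its desmosomal proteins are a known cause of arrhythmogenic cardiomyopathy. Myzap (myozap) is a disc protein known to bind desmoplakin and the scaffold protein ZO-1.

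Some libraries went against their labels or stood apart, and results that rest on them are also given without them. Library totals lay between 11610507 and 16884516 reads, and 1 read equalled 0.0548 to 0.0948 CPM, the count scaled by the library total after TMM (trimmed mean of M-values) normalization. Esr1, whose count can take up reads of the estrogen receptor part of the transgene, ran from 1553 to 4683 CPM in Parkin KO libraries. It ran from 24 to 64.9 CPM in 4 noninduced libraries, but noninduced 1 held 557.9 CPM and noninduced 3 held 962.5 CPM. By Xist and Y-linked reads, 3 Parkin KO libraries were male, noninduced 3 carried both kinds of marker, and the other 8 libraries were female. Mitochondrially encoded genes took 6.65% to 16.7% of counts in noninduced and 5.17% to 9.53% in Parkin KO libraries. The labels give no breeding, dissection or sequencing batch, so whether the 6 hearts of a group were independent in those respects is not known.

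RefSeq promoter windows of build GRCm38.p6 run from 250 bases before to 50 bases after a transcription start, 300 bases in all, and 6 of the 10 genes had an entry. Those of Myzap, Dsp and Gja1 are shown because these genes had the highest levels in the deposited FPKM values and represent Myzap, its binding partner desmoplakin and the gap junction channel. The Myzap window lies at chr9:71592311-71592610 on the minus strand, the Dsp window at chr13:38151044-38151343 on the plus strand and the Gja1 window at chr10:56377050-56377349 on the plus strand. Capitals mark the GC box (GGGCGG, or its reverse complement) in the Myzap and Dsp windows and the AP-1 site (TGAGTCA) in the Gja1 window.
Myzap: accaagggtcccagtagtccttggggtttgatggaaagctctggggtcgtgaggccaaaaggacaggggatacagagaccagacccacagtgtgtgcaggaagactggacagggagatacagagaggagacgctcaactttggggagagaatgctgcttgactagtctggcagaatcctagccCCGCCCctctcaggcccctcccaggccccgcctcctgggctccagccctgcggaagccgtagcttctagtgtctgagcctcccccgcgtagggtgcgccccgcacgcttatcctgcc
Dsp: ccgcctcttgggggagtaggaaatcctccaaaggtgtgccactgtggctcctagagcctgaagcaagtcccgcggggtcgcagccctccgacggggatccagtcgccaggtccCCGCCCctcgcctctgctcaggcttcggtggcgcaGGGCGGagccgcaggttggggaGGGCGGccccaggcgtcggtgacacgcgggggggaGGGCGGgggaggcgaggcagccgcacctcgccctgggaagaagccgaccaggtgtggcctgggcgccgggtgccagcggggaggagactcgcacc
Gja1: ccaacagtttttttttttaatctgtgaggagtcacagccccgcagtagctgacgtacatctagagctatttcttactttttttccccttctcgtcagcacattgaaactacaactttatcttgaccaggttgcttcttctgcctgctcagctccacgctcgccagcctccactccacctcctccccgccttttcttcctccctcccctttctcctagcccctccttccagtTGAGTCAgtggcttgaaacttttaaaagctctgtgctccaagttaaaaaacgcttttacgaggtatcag
These windows differ in base composition. The GC content was 61.7% in the Myzap window, 73% in the Dsp window and 47.7% in the Gja1 window, against a median of 52.7% over all 32851 windows of the same length. Motifs were searched on both strands. A GC box occurred 1 time in the Myzap window, 4 times in the Dsp window and 0 times in the Gja1 window, and 35.7% of all windows hold at least 1. The AP-1 letters occurred 1 time in the Gja1 window and in none of the other members' windows, and 5.2% of all windows hold them. The serum response factor motif (CArG box, held by 1.63% of all windows), the MEF2 motif (held by 3.19%) and the estrogen-related receptor letters TCAAGGTCA (held by 0.423%) were found in none of the 6 members' windows. The M-CAT letters CATTCC (held by 14.7%) occurred 1 time, in a Ctnna3 window. The E-box letters CANNTG, where N is any base (held by 72.3%), occurred 1 time each in the Dsp and Gja1 windows and 2 times in a Ctnna3 window. A match is a description of letters in a window, and no match says only that the letters are not there.

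Levels of different genes were compared in the deposited FPKM values, which are scaled by transcript length. Over all 12 libraries Dsp, which encodes desmoplakin, the plaque protein that ties desmosomes to desmin, had the highest level at 247 ± 34.7 FPKM (SD, n = 12). Myzap came next at 173 ± 26.1 FPKM, then Gja1, the gap junction channel protein connexin 43, at 146 ± 20.5 FPKM, and Jup, the shared plaque protein plakoglobin, at 124 ± 11.2 FPKM. Cdh2, the adherens junction cadherin of the heart (N-cadherin), stood at 97.9 ± 7.95 FPKM and Pkp2, the desmosomal plaque protein plakophilin-2, at 41 ± 6 FPKM. The lowest 4 were Dsg2, a desmosomal cadherin, at 19.2 ± 4.75 FPKM, Tjp1, the scaffold ZO-1, at 16.6 ± 1.57 FPKM, Ctnna3, the actin-linking alpha-T-catenin, at 7.67 ± 1.27 FPKM, and Dsc2, the other desmosomal cadherin here, at 4.53 ± 1.22 FPKM.

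The order of levels was nearly the same in every heart. Dsp was above Myzap, Jup above Cdh2, Cdh2 above Pkp2, Pkp2 above Dsg2, Tjp1 above Ctnna3 and Ctnna3 above Dsc2 in 12 of 12 libraries. Myzap exceeded Gja1 in 11 libraries, 5 of them noninduced and 6 Parkin KO. Gja1 exceeded Jup in 10 and Dsg2 exceeded Tjp1 in 10. The ranges over libraries overlapped between Dsp and Myzap, Myzap and Gja1, Gja1 and Jup, Dsg2 and Tjp1, and Ctnna3 and Dsc2. Levels of these neighbours could thus cross between different hearts, though Dsp stayed above Myzap and Ctnna3 above Dsc2 within every heart. With CPM per kilobase of annotated exon in place of FPKM, 7 of the 9 neighbouring pairs kept their order. Jup moved from rank 4 to rank 2, Myzap from rank 2 to rank 3 and Gja1 from rank 3 to rank 5. Cdh2 moved from rank 5 to rank 4, and Dsg2 and Tjp1 exchanged ranks 7 and 8. Both desmosomal cadherins were present in every heart in an uneven ratio, with Dsg2 at 4.33 times the FPKM of Dsc2 on average, between 3.46 and 5.52 times.

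**Figure D1:**
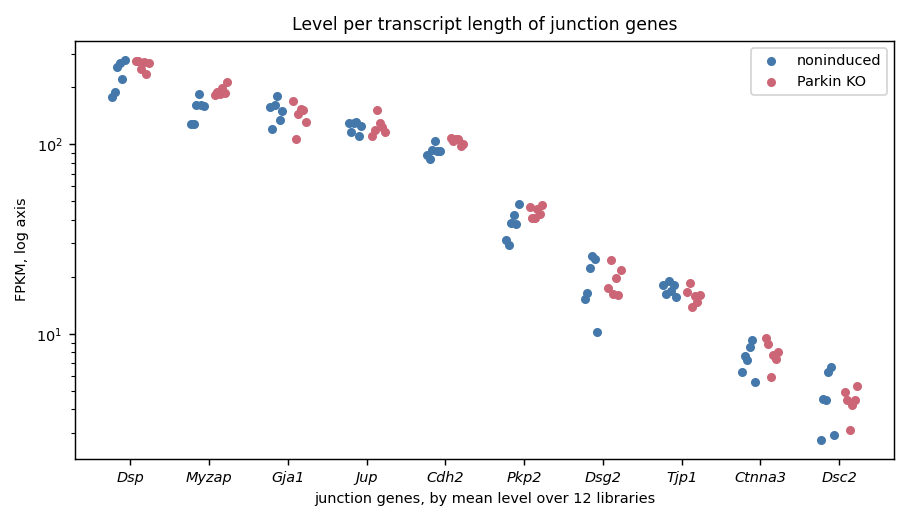
Deposited FPKM values (log axis) of the 10 disc junction genes in order of their mean level, with 1 point per library coloured by group. Dsp lies at the top (177 to 279 FPKM) and Dsc2 at the bottom (2.78 to 6.72 FPKM), and for Myzap the highest noninduced point (184 FPKM) lies just above the lowest Parkin KO point (182 FPKM).

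Myzap, at chr9:71504347-71592360 on the minus strand (GENCODE annotation of GRCm38), stood at 306, 322 and 385 CPM (lowest, median and highest) in noninduced hearts and at 391, 411 and 449 CPM in Parkin KO hearts. Every Parkin KO library lay above every noninduced library on this scale, a property of 0.23% of all tested genes (30 of 13050) and one that the choice of Myzap made likely. The means were 334 ± 30.5 and 414 ± 22.9 CPM (SD, n = 6 each), a fold of 1.24. The log2 fold change, Parkin KO over noninduced, was 0.31 with a standard error of 0.08. On the FPKM scale the groups touched, since the highest noninduced library stood at 184 and the lowest Parkin KO library at 182 FPKM. Over 25 other ways of processing the data, the log2 fold change of Myzap ran from 0.27 to 0.34, and it was 0.30 without the noninduced libraries of high Esr1 and 0.29 in female libraries alone. These runs reuse the libraries by which Myzap was chosen, so their range is a description and no support for the difference.

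Polr2m, a gene for an RNA polymerase II subunit, is the neighbour of Myzap on the same strand, 18411 bases away, and the 2 genes are known to give read-through transcripts. Its counts were lowest at 162, median 183 and highest 205 CPM in noninduced hearts against 188, 202 and 214 CPM in Parkin KO hearts. Of the noninduced libraries 5 lay below every Parkin KO library and noninduced 4 lay among them, so that 1 Parkin KO library was above all noninduced ones. The log2 fold change was 0.16 ± 0.07 (SE; 95% interval 0.002 to 0.31). It did not pass the test over all genes (edgeR quasi-likelihood, adjusted p = 0.438). Reads of a shared transcript could be assigned to either gene, and their part in the Myzap count was not tested.

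In the adherens junction, Cdh2 (chr18:16588877-16809246, minus strand) stood at 397, 435 and 466 CPM in noninduced hearts against 445, 487 and 501 CPM in Parkin KO hearts. Of the 6 Parkin KO libraries, 4 lay above all noninduced ones, and the remaining 2 overlapped them. The means, 432 ± 30 and 477 ± 23.5 CPM (SD, n = 6 each), gave a log2 fold change of 0.15 (95% interval -0.01 to 0.30) that did not pass (edgeR, adjusted p = 0.448). Ctnna3 (chr10:63430098-65003667, plus strand) stood at 18.8, 28.5 and 31.6 CPM in noninduced hearts against 21, 27.9 and 34.6 CPM in Parkin KO hearts. The groups overlapped almost wholly, with a log2 fold change of 0.08 (-0.22 to 0.37; edgeR, adjusted p = 0.834).

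Among the plaque proteins of the desmosome, Dsp (chr13:38151294-38198577, plus strand) stood at 1952, 2278 and 2572 CPM in noninduced hearts against 2252, 2580 and 2809 CPM in Parkin KO hearts. The 3 lowest libraries of all were noninduced and the 3 highest were Parkin KO, while the other 6 were interleaved. The log2 fold change was 0.17 (95% interval -0.06 to 0.39; edgeR, adjusted p = 0.53). Pkp2 (chr16:16213318-16272712, plus strand) stood at 90.3, 105 and 126 CPM in noninduced hearts against 113, 123 and 130 CPM in Parkin KO hearts. Noninduced 4 and 6, at 114 and 125.6 CPM, lay among the Parkin KO libraries, and 4 noninduced libraries lay below all of them. With a log2 fold change of 0.20 (0.02 to 0.38) Pkp2 was the only one of the 9 genes other than Myzap with an unadjusted p under 0.05, and it did not pass over all genes (edgeR, adjusted p = 0.424). Jup (chr11:100368958-100397763, minus strand) stood at 514, 634 and 734 CPM in noninduced hearts against 551, 615 and 749 CPM in Parkin KO hearts. Its groups coincided, with a log2 fold change of -0.01 (-0.23 to 0.21; edgeR, adjusted p = 0.972) whose sign turned with upper quartile scaling (0.004) and in female libraries alone (0.06).

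The desmosomal cadherins had the widest spread of the 10 genes within the noninduced group, with a coefficient of variation of 29.7% for Dsg2 and 31.5% for Dsc2 against 6.94% for Cdh2. Dsg2 (chr18:20558074-20604521, plus strand) stood at 54.3, 117 and 144 CPM in noninduced hearts against 89.8, 105 and 147 CPM in Parkin KO hearts. Dsc2 (chr18:20030633-20059554, minus strand), 498519 bases away in the same cadherin cluster, stood at 12.1, 21.1 and 27.5 CPM in noninduced hearts against 13.5, 20 and 22.7 CPM in Parkin KO hearts. The groups overlapped for both genes, and for both the lowest library was noninduced 6. The log2 fold change was -0.01 (95% interval -0.43 to 0.41; edgeR, adjusted p = 0.986) for Dsg2 and -0.08 (-0.49 to 0.34; edgeR, adjusted p = 0.883) for Dsc2. Without noninduced 6 these were -0.16 and -0.20, and neither passed (edgeR, adjusted p = 0.567 and 0.556). Without that library the log2 fold change of Ctnna3, also lowest there, was -0.02.

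Gja1 (chr10:56377330-56402513, plus strand) stood at 377, 459 and 538 CPM in noninduced hearts against 338, 443 and 506 CPM in Parkin KO hearts. The highest 2 libraries were noninduced and the lowest 1 was Parkin KO, with the other 9 interleaved. Its log2 fold change was -0.10 (95% interval -0.35 to 0.15; edgeR, adjusted p = 0.724), and it was 0.04 in female libraries alone. Tjp1 (chr7:65296165-65527781, minus strand) stood at 103, 123 and 144 CPM in noninduced hearts against 98, 110 and 136 CPM in Parkin KO hearts. The highest 2 libraries, noninduced 1 and noninduced 3, were those of high Esr1. The log2 fold change of Tjp1 was -0.15 (-0.36 to 0.06; edgeR, adjusted p = 0.538), and -0.06 without those libraries.

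**Figure D2:**
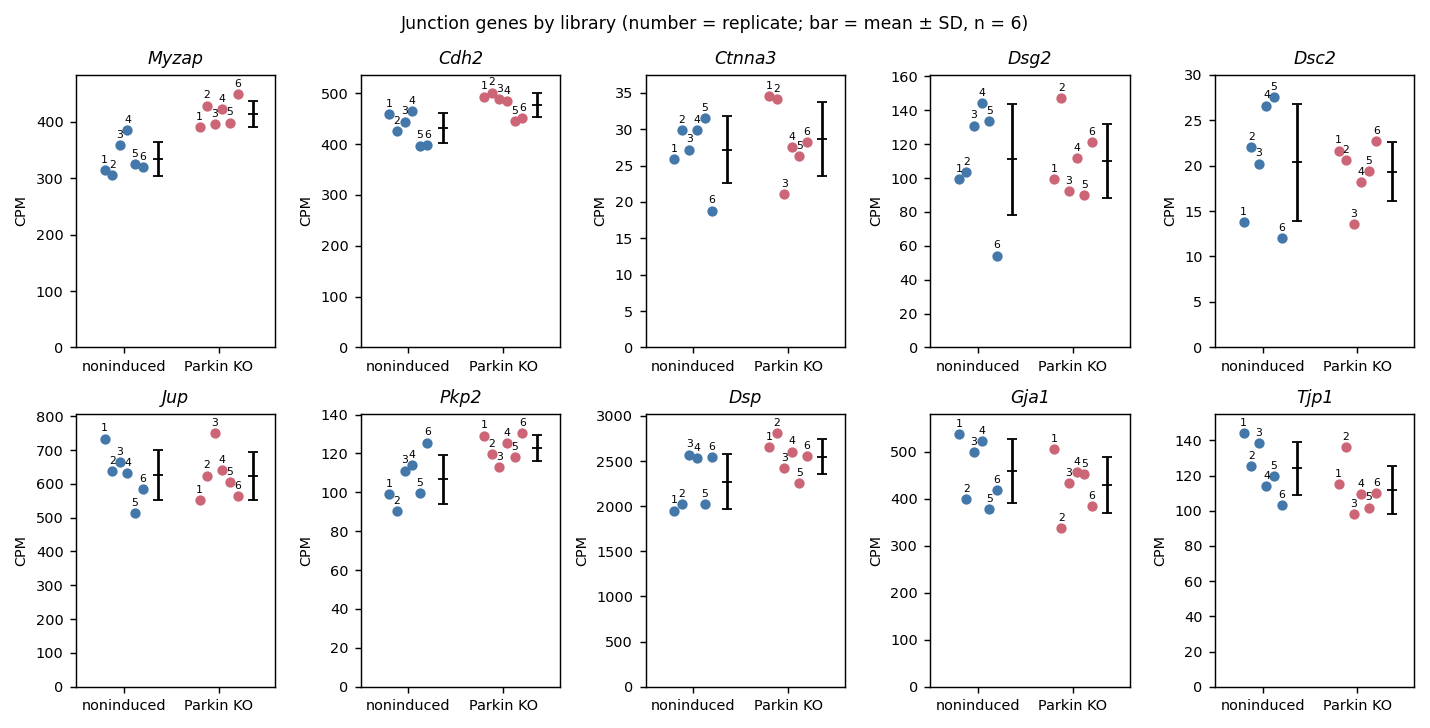
CPM of each of the 10 genes by library, 1 panel per gene with its own axis from 0; the number over a point is its replicate number, and the bar beside each group is the mean ± SD (n = 6). The groups are apart for Myzap (at most 385 against at least 391 CPM) and overlap for the other 9 genes, and noninduced 6 is the lowest point for Ctnna3, Dsg2 and Dsc2.

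Set beside Myzap, the rest of the disc junction genes were split in direction. Of the 9 genes other than Myzap, 4 were higher and 5 lower in Parkin KO hearts, and their median log2 fold change was -0.01. The values of Dsg2, Jup and Gja1 turned under some settings, and those of Dsc2 and Ctnna3 with single libraries left out. The split was 6 higher and 3 lower with upper quartile scaling, with a sex term, in female libraries and in FPKM. The sex term and the female libraries gave nearly the same values, as no noninduced library was male by its markers. The split was again 6 and 3 without noninduced 1 and 3, without noninduced 3, 4 or 5 alone, and without Parkin KO 1. Without noninduced 6 it was 3 higher and 6 lower. Of all tested genes 52% were higher, with a median of 0.01. None of the 9 passed edgeR's test at an adjusted p under 0.05, as did none of all 13050 genes (0%). At an unadjusted p under 0.05, 1 of the 9 was higher (Pkp2), against 5.82% of all genes higher and 11.4% in either direction. DESeq2 called 10 of all genes (0.0766%) and none of these 9, and limma-voom called 0. The DESeq2 call of Myzap is the difference by which it was chosen and is no test of it. In the fit of all 12 libraries the 4 higher genes, Pkp2, Dsp, Cdh2 and Ctnna3, span the desmosomal plaque and the adherens junction, and the 5 lower ones the desmosomal cadherins, plakoglobin, connexin 43 and ZO-1. Upper ends of the intervals lay above the Myzap value (0.31) for Dsg2 (0.41), Dsp (0.39), Pkp2 (0.38), Ctnna3 (0.37) and Dsc2 (0.34). They lay just below it for Cdh2 (0.304), and further below for Jup (0.21), Gja1 (0.15) and Tjp1 (0.06). A rise of 0.31 thus lies within the intervals of some of these genes and outside those of others. That value is the one by which Myzap was chosen, which can make it too large, and it has its own standard error of 0.08. The sorting takes it as exact, so it does not show which genes lack a rise like that of Myzap. In simulated counts of this design, 44.5% of genes changed by 1.5-fold and 85.5% of those changed by 2-fold were called. Those counts held 200 changed genes, which eases the adjusted threshold, and no libraries that went against their labels. In the real counts no gene passed, so these shares may overstate what the test could find here. Changes as small as that of Myzap were not simulated.

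**Figure D3:**
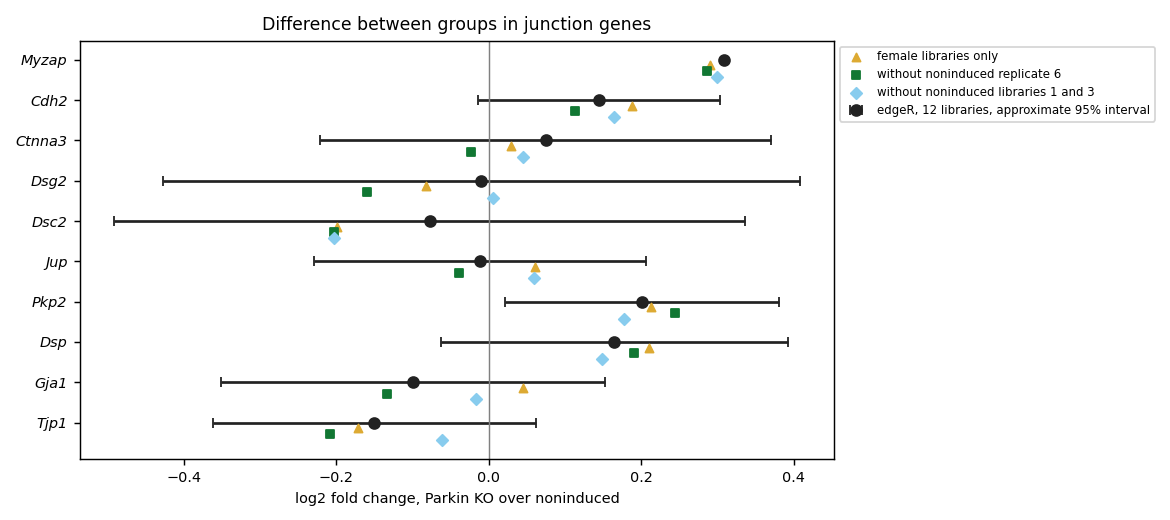
Log2 fold change (Parkin KO over noninduced) of the 10 genes, with black points for all 12 libraries, 95% intervals for the 9 genes not chosen by this difference, and coloured symbols for female libraries only, without noninduced 6, and without noninduced 1 and 3. The interval of Pkp2 (0.02 to 0.38) lies above 0 before adjustment, and those of the other 8 genes cross it.

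These are bulk libraries, in which fewer cells of a type and less RNA per cell cannot be told apart. The summed CPM of 13 cardiomyocyte markers ran from 84525 to 117677 in noninduced and from 102843 to 124363 in Parkin KO libraries, with 11 of the 13 higher in Parkin KO, a median log2 fold change of 0.12 and none past the test. Noninduced 6, the library lowest for Dsg2, Dsc2 and Ctnna3, had the lowest cardiomyocyte sum and the highest sum of 8 fibroblast markers (686 to 1772 CPM in noninduced hearts against 597 to 1181 CPM in Parkin KO libraries). Of the 8 fibroblast markers 2 were higher in Parkin KO, with a median log2 fold change of -0.21. The sum of 6 atrial markers ran from 121 to 5987 CPM in noninduced hearts and from 158 to 1547 CPM in Parkin KO libraries, and 0 of 6 were higher (median log2 fold change -4.25). The sum of 6 smooth muscle and pericyte markers ran from 510 to 866 CPM and from 519 to 667 CPM in these groups, and 1 of 6 was higher (median log2 fold change -0.36). Sums of 8 endothelial markers (1094 to 1335 and 1146 to 1306 CPM) and of 7 macrophage markers (154 to 207 and 130 to 195 CPM) overlapped between the groups. Desmosomal genes are also expressed in epithelia, and the sum of 11 epithelial and mesothelial markers ran from 11.3 to 43.3 CPM in noninduced hearts against 12.7 to 21.2 CPM in Parkin KO libraries. Of these 11 markers 5 passed the low-count filter, and 0 of these were higher (median log2 fold change -0.57). Krt18, Krt19 and the mesothelial genes Upk3b, Msln and Wt1 reached 242, 48, 322, 124 and 197 reads in a library, and Krt8 reached 32. Epcam, Cdh1, Krt5 and Krt14, which mark surface epithelia, had at most 1, 3, 1 and 4 reads in any library. The part of these shifts in the members' values was not tested.

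Variation between hearts of the same group was compared across the genes. Deviations of log2 CPM from the group means over the 12 libraries were correlated between Myzap and each other gene, with p from permutations within groups (100000 resamples, two-sided) adjusted over the 9 relations. In CPM with all 12 libraries the highest values were with Dsp (Pearson r = 0.626, permutation p = 0.0681, adjusted p = 0.326; Spearman rho = 0.517, permutation p = 0.144) and Dsg2 (r = 0.608, permutation p = 0.0724, adjusted p = 0.326; rho = 0.678, permutation p = 0.0243). Without noninduced 4 and Parkin KO 6, the libraries farthest from the median of Myzap, r was 0.642 for Dsp and 0.532 for Dsg2. The r of Myzap with Pkp2 was 0.477, with Dsc2 0.46, with Cdh2 0.295 and with Ctnna3 0.226, while Tjp1 (0.0903), Gja1 (0.0773) and Jup (-0.0582) lay near 0. The order depended on the unit and on single libraries. Dsg2 came above Dsp when noninduced 1, 2, 3 or 5 was left out, for example with r = 0.654 and 0.567 without noninduced 2. Without noninduced 6, r was 0.804 for Pkp2, 0.777 for Dsp and 0.762 for Dsg2 (permutation, adjusted p = 0.0566, 0.079 and 0.0566), and in FPKM it was 0.802 for Dsp, 0.78 for Pkp2, 0.686 for Cdh2 and 0.484 for Dsg2. None of the 9 relations passed after adjustment. The points share library depth and tissue composition.

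Over all 45 pairs of the 10 genes, a family computed after the data had been seen, r was above 0 in 28 pairs and had a median of 0.0937. The only pair to pass after adjustment over the 45 was Ctnna3 and Dsc2 (r = 0.834, permutation p = 0.00048, adjusted p = 0.0216; rho = 0.769, permutation p = 0.00426). Their r was 0.888 within noninduced and 0.827 within Parkin KO libraries. Without noninduced 6 and Parkin KO 3, the libraries farthest from the median of Ctnna3, r was 0.58 (permutation p = 0.0206, not adjusted), so part of the relation rests on them. Noninduced 6 had the lowest and Parkin KO 3 the highest cardiomyocyte sum of all libraries. Both genes were the lowest of their group in each, with Ctnna3 at 18.8 and 21 CPM and Dsc2 at 12.1 and 13.5 CPM. The part of cardiomyocyte content in the relation was not tested. The next highest pair was Pkp2 and Dsp (r = 0.774, permutation p = 0.0251, adjusted p = 0.282; rho = 0.734, permutation p = 0.0349), with r = 0.751 without noninduced 2 and noninduced 6. Dsg2 followed with both genes of the first pair, with r = 0.772 to Ctnna3 (permutation p = 0.00957, adjusted p = 0.144; rho = 0.636, permutation p = 0.0341) and r = 0.771 to Dsc2 (permutation p = 0.00483, adjusted p = 0.109; rho = 0.685, permutation p = 0.0219). Without the 2 farthest libraries r was 0.451 and 0.551 for the Dsg2 pairs.

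**Figure D4:**
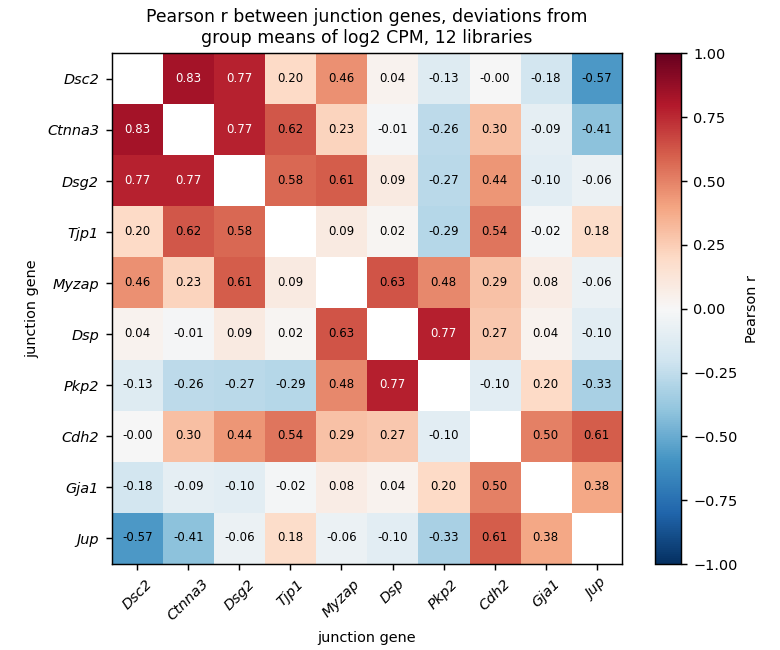
Pearson r of within-group deviations of log2 CPM over 12 libraries for each pair of the 10 genes, printed in each cell and coloured from -1 to 1. The 4 highest values are those among Ctnna3, Dsg2 and Dsc2 (0.771 to 0.834) and that of Pkp2 with Dsp (0.774), and the lowest is -0.572, between Dsc2 and Jup.

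The 5 genes whose within-group pattern was most like that of Myzap were not among the other junction genes examined here. By Pearson r of the same deviations over the 12 libraries, the first 5 of 13049 other genes were Msrb2 (0.936), a mitochondrial methionine sulfoxide reductase, Etfa (0.932), a mitochondrial electron transfer flavoprotein subunit, Ppp2r5c (0.907), a regulatory subunit of protein phosphatase 2A, Tesc (0.906), the calcium-binding protein tescalcin, and Ndufa4 (0.905), a subunit of the mitochondrial respiratory chain. In that order Polr2m was at rank 524, Dsp at rank 593 and Dsg2 at rank 691, while Jup was at rank 7819. Msrb2 stood at 25.8 ± 6.01 CPM in noninduced hearts against 33.6 ± 2.67 CPM in Parkin KO hearts, and Ndufa4 at 415 ± 50.6 and 489 ± 25.5 CPM (SD, n = 6 each). High values are bound to occur among so many genes, and with so few other junction genes a top 5 without them was likely in any case. The values and ranks are a description.

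A wider list of 64 disc partner genes was read beside the members, and 53 of them passed the low-count filter. Of these 53, 26 were higher and 27 lower in Parkin KO hearts. Their median log2 fold change was -0.003, with none past edgeR's test, as with all 13050 genes. Of the 53, 3 were higher (Pvrl2, Ppl and Itgb1bp2) and 2 lower (Gja5 and Zyx) at an unadjusted p under 0.05 (edgeR). At that threshold all tested genes gave 5.82% higher and 11.4% in either direction, so these counts are not particular to the partners. By role, 5 of 9 adherens junction partners, 3 of 6 desmosomal, 2 of 5 gap junction, 6 of 14 scaffold and membrane, and 10 of 19 filament-linking partners were higher. Partners of the adherens junction cadherin included Ctnnb1 (beta-catenin; log2 fold change 0.14 ± 0.09, SE), Ctnna1 (alpha-E-catenin; 0.15 ± 0.12), Ctnnd1 (p120-catenin; -0.08 ± 0.09) and Vcl (vinculin; 0.02 ± 0.09). Pvrl2 (nectin-2, an adhesion receptor) stood at 26.3, 33.8 and 39.4 CPM in noninduced hearts against 30.7, 45.7 and 50.7 CPM in Parkin KO hearts, the smallest p among partners (log2 fold change 0.39 ± 0.13; edgeR, adjusted p = 0.417). Its groups overlapped.

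Intermediate filament partners of the desmosome differed in direction, and among them Ppl had an unadjusted p under 0.05 (edgeR). Des (desmin) had a log2 fold change of -0.20 ± 0.14 (SE), Plec (plectin, a filament cross-linker) 0.07 ± 0.10, and Ppl (periplakin) 0.73 ± 0.33 from 16.7 ± 8.4 CPM in noninduced hearts against 27.7 ± 10.4 CPM in Parkin KO hearts (SD, n = 6 each). Among connexins, Gjc1 (connexin 45) had a log2 fold change of 0.08 ± 0.11. Gja5 (connexin 40, of atria and conduction tissue) had one of -1.18 ± 0.40, with 7.67, 9.95 and 40.2 CPM in noninduced hearts against 6.19, 7.95 and 10 CPM in Parkin KO hearts (edgeR, adjusted p = 0.417). Only noninduced 2 and noninduced 5, which held 3330 and 5987 CPM of atrial markers, lay above all other libraries for Gja5, while noninduced 6 held 4083 CPM of atrial markers and 7.67 CPM of Gja5. Without noninduced 2 and noninduced 5 the log2 fold change of Gja5 was -0.16 ± 0.15 (SE). The part of atrial tissue in that value was not tested.

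None of the scaffold and membrane partners passed the test, and their log2 fold changes ran from -0.38 to 0.31. The log2 fold change was 0.22 ± 0.12 (SE) for Cxadr (the coxsackievirus and adenovirus receptor), -0.19 ± 0.14 for Tmem65 (a disc membrane protein that binds connexin 43) and -0.05 ± 0.10 for Popdc2 (a cAMP-binding membrane protein). Among genes that link the junctions to the contractile filaments, it was -0.14 ± 0.13 for Xirp1 and -0.47 ± 0.31 for Xirp2, which are actin-binding Xin proteins, and 0.09 ± 0.15 for Nrap, a nebulin-related anchoring protein. Without noninduced 6, the library highest for both, it was -0.19 ± 0.27 for Xirp2 and 0.24 ± 0.10 for Nrap. It was 0.09 ± 0.13 for Fermt2 (kindlin-2), -0.13 ± 0.08 for Ilk (integrin-linked kinase), -0.25 ± 0.13 for Sorbs2 (an actin and vinculin-binding adaptor) and 0.24 ± 0.11 for Itgb1bp2 (melusin). Zyx (zyxin, a focal adhesion protein) stood at 167 ± 37.9 CPM in noninduced hearts against 127 ± 16.8 CPM in Parkin KO hearts (SD, n = 6 each), a log2 fold change of -0.39 ± 0.14. None of these passed (edgeR quasi-likelihood with Benjamini-Hochberg adjustment).

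**Figure D5:**
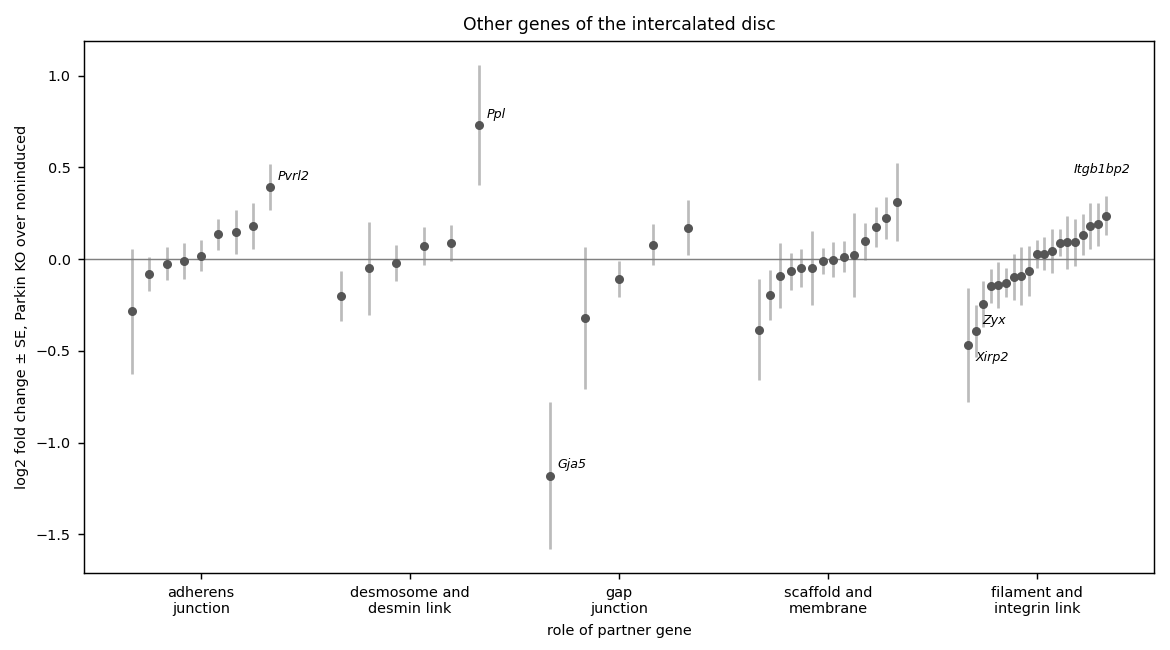
Log2 fold change (Parkin KO over noninduced) ± SE of the 53 tested disc partner genes, 1 point per gene, ordered by value within each role; names are given for named partners with an unadjusted p under 0.05 or a difference over 0.3. Points scatter on both sides of 0 in each role, from -1.18 (Gja5) to 0.73 (Ppl).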

How the data were processed

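Polyadenylated RNA of 6 noninduced and 6 Parkin KO hearts was sequenced as single-end libraries without strand, per the labels' protocols. The authors deposited whole read counts per gene symbol; the tools named in the submitters' processing notes include TopHat2 2.0.10, Bowtie2 and HTSeq, with build mm10. The authors also deposited FPKM values, with Cufflinks 2.1 among the tools in the submitters' processing notes; the sources used here give neither annotation nor counting mode. Columns headed wt were matched to noninduced samples by number. Counts were fitted over all genes in R 4.3.3 with edgeR 4.0.16 (TMM, filterByExpr, quasi-likelihood F test on group, two-sided, Benjamini-Hochberg threshold 0.05); CPM values use TMM-scaled library sizes, and standard errors derive from the F statistic and are approximate. FPKM was tested in limma 3.58.1 as log2(FPKM + 1) for genes of at least 1 FPKM, which understates changes of low genes. DESeq2 1.42.0, limma-voom, other scalings and filters, a sex term, left-out libraries and FPKM were tried as alternatives. The same code was tested on simulated counts (200 changed genes of 12944 at 1.5-fold and of 12960 at 2-fold). Correlations used SciPy 1.17.1 and NumPy 2.4.6. Positions are 1-based, from GENCODE for GRCm38.

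The members and lists were chosen with earlier results of these data known. Genes named are the 10 members, 16 fixed partners, the 6 other partners of smallest p, Polr2m, Esr1 and the 5 genes most like Myzap. Gcom1 at the Myzap locus and promoter windows of Cdh2, Dsg2, Dsc2 and Pkp2 were not analysed here, and the targeted gene and 1 of the fixed partners are not reported here.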

Additional observations from a re-analysis of the deposited data

Results flagged for a closer look

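Of 68 groups of 6 libraries checked (34 genes: the members, the named partners, Polr2m and Esr1), 2 held a library far from the rest; chance picks out about 1 in 20 groups. Both were noninduced 6. It held 1048 CPM of Xirp2, where the other 5 noninduced libraries held 334 to 568 CPM (gap over range 0.672), and 2196 CPM of Nrap, where the others held 1221 to 1431 CPM (0.785). The same library was the lowest of the 12 for Dsg2, Dsc2 and Ctnna3.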

How the results depend on the processing

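The count of all genes past the threshold was 0 except for 10 with DESeq2 and 1 without noninduced 1 and 3 (Esr1); with each replicate left out in turn it was 0 to 0. Cdh2, Pkp2, Dsp and Tjp1 kept their direction in all 25 alternatives, as did Myzap, which was chosen by its difference in these libraries. Dsg2 turned to 0.0361 with limma-voom, 0.000534 with upper quartile scaling, 0.0283 with the replicate block, 0.005 without noninduced 1 and 3, and 0.0535, 0.0591 and 0.0535 in FPKM with a pseudocount of 1, with 0.1 and without a filter. Jup turned to 0.00392 with upper quartile scaling, 0.061 with a sex term, 0.0612 in female libraries, 0.0591 without noninduced 1 and 3, and 0.0133, 0.0134 and 0.0133 in the same FPKM settings. Gja1 turned to 0.0443 with a sex term and 0.0444 in female libraries. With single replicates left out, the log2 fold change ran from -0.16 to 0.0666 for Dsg2, -0.0832 to 0.024 for Jup, -0.0227 to 0.139 for Ctnna3 and -0.203 to 0.0207 for Dsc2, and r with Myzap from -0.00376 to 0.475 for Cdh2, -0.203 to 0.213 for Gja1, -0.168 to 0.0943 for Jup and -0.0245 to 0.335 for Tjp1. Other turns of r were 0.0245 for Jup in FPKM and -0.102 for Tjp1 with group and sex means. Where the values turned, the cause was not tested. The number of higher partners ran from 22 to 34 of 53 in counts with the low-count filter, and was 32 of 63 without a filter, 30 of 48 in FPKM and 35 of 62 in FPKM without a filter. Leaving out noninduced 2 and 5 for Gja5, and noninduced 6 for Xirp2 and Nrap, was chosen after seeing the data. Same-numbered libraries did not deviate together (r = -0.0973 to 0.158), and in 0 pairs did each library correlate best with its own number. This gave no sign that the numbers pair the samples, but it cannot exclude a pairing, because other differences between hearts also enter these deviations. With the replicate block 0 genes passed (edgeR, smallest adjusted p = 0.12) and Myzap had 0.311. Depth limits Dsc2 and Ctnna3 most, at 155 to 464 and 292 to 532 reads per library.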
